A study of Homo sapiens with 6 samples.

Results

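The genes described here build the kinetochore, run the spindle checkpoint or carry cells out of mitosis. They are a fixed list of 53 genes, of which 52 were measured by a probe set that the array's annotation assigns to that gene alone, out of 18129 genes measured in this way. Where a gene had several such probe sets, the one with the highest mean over the 6 arrays was used. PTTG1 had no set of its own and is described separately. Total RNA came from UMUC3-c31 cells. UMUC3 is an established bladder cancer line, and the labels used here do not describe the origin of c31. The R1881 group (3 arrays) received 10 nM R1881, a synthetic androgen, for 24 h, and the vehicle group (3 arrays) received ethanol for 24 h. Both groups had first been kept for 24 h in charcoal-stripped serum, which is depleted of steroids. The design text calls the 3 samples of each condition biological replicates, without saying whether they were separate cultures grown at separate times.

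Kinetochores are protein assemblies on the centromere that hold chromosomes to spindle microtubules. The inner layer sits on nucleosomes that carry the histone variant CENPA, and the outer layer binds the microtubule ends. Unattached kinetochores keep the spindle checkpoint active, which restrains CDC20 and the anaphase-promoting complex until every chromosome is attached. Many of these genes are transcribed mainly in G2 and mitosis, so their RNA can follow the share of cells in that stage. That share was not measured here. In a bulk sample, fewer cells in that stage and less RNA per cell cannot be told apart.

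Values are log2 RMA intensities, so a difference of -0.15 corresponds to about 0.901 times the vehicle level. All 52 genes lay above the background level of 4.99, which is the 90th percentile of 423 olfactory receptor and keratin-associated protein genes. Their means over the 6 arrays ran from 5.90 for CENPP to 11.33 for BUB3, with a median of 9.23. Probe affinity also sets these levels, so each change was taken within a gene. Levels of different genes were compared only roughly, to call genes dim or bright and to set them against background. The label of the cells was checked on marker genes. The mesenchymal genes VIM and ZEB1 were bright (VIM at 14.06 in R1881 arrays and 14.10 in vehicle arrays), as was KRT18 (10.38 in R1881 arrays and 10.75 in vehicle arrays). Of 14 urothelial and epithelial markers 6 lay above background in at least 1 group. Besides KRT18 these were KRT8, KRT7 and, close to the background level, UPK1A, GATA3 and FOXA1. UPK1A stood at 5.08 in R1881 arrays and 5.03 in vehicle arrays, and GATA3 at 5.02 in R1881 arrays and 4.91 in vehicle arrays. Among the other 8, UPK1B, UPK2, UPK3A, EPCAM and CDH1 lay below background in both groups. Of 9 immune and endothelial markers 3 lay above background in at least 1 group, and PTPRC, the leukocyte marker, did not. The 3 were CD68 (8.69 in R1881 arrays and 8.93 in vehicle arrays) and, close to background, VWF and CD3E. Of 9 fibroblast markers 2 lay above background, ACTA2 (7.31 in R1881 arrays and 7.36 in vehicle arrays) and PDGFRB (5.29 in R1881 arrays and 5.15 in vehicle arrays). No immune, endothelial or fibroblast marker passed the test. In the bladder and mesenchymal lists KRT18 and CD44 fell and KRT7 and FN1 rose.

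The mitotic genes were slightly lower with R1881 almost throughout, and 1 of them passed the test. Of the 52 genes, 50 (96.2%) were lower by sign and 2, HJURP and CENPE, were higher. By sign 48.7% of all genes and 51.6% of genes above background were lower. The median change was -0.15, with an interquartile range of -0.20 to -0.10, while the median over all genes tested was 0.00 and over the 11049 genes above background -0.01. NUF2 fell, with an adjusted p of 0.0429 (limma, Benjamini-Hochberg over all genes), and the other 51 did not pass. That is 1.92% of the members against 0.816% of all genes called lower, and none was called higher against 1.6% of all genes. A further 6 genes had an adjusted p between 0.05 and 0.10, namely ECT2, CENPU, BIRC5, CENPH, NEK2 and TTK.

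At an unadjusted p under 0.05, 34 of the 52 genes (65.4%) were lower and 0 higher, where 7.19% of all genes were lower and 7.07% higher. Among genes above background, 10.3% were lower at that level. All 3 R1881 arrays lay below all 3 vehicle arrays for 37 of the 52 genes (71.2%), which 9.93% of all genes and 14.8% of genes above background also did. All 3 R1881 arrays lay above the vehicle arrays only for HJURP, against 8.53% of all genes. The changes are mostly smaller than those the adjusted test called. The standard error (SE) of a change had a median of 0.05 over the members, and the smallest change of any gene called in the fit was 0.22 in size. Of the members 8 lay at least that far below vehicle, and 26 of the 52 lay at least 10% below it. The shares of all genes beyond these sizes were not counted.

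**Figure D1:**
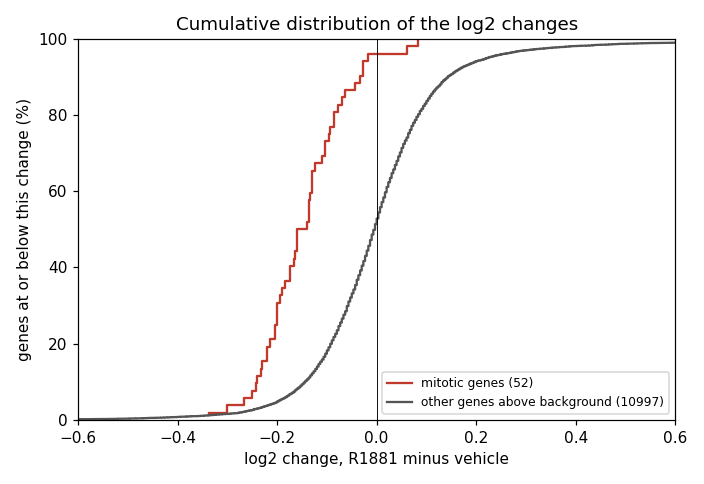
Cumulative share of genes (vertical axis, %) by log2 change, R1881 minus vehicle (horizontal axis), for the 52 mitotic genes and for 10997 other genes above background. The curve of the mitotic genes lies to the left, with 50 of 52 genes below 0 and a median of -0.15. Changes beyond 0.6 in size are outside the axis.

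The lower values were shared by all 3 R1881 arrays. Relative to each gene's vehicle mean, the median deviation of the 52 genes was -0.14 in R1881 replicate 1, -0.14 in replicate 2 and -0.15 in replicate 3, and 0.01, -0.02 and -0.01 in vehicle replicates 1, 2 and 3. The same median over all genes stayed between -0.003 and 0.007 on every array. In R1881 replicates 1, 2 and 3, 46, 50 and 48 of the 52 genes lay below their vehicle mean. In vehicle replicates 1, 2 and 3 the counts were 22, 34 and 27. The vehicle arrays set that mean, so their deviations centre on it by construction. On the second principal component of all genes vehicle replicate 1 scored 11.04, while vehicle replicates 2 and 3 scored -8.21 and -6.99. R1881 replicates 1, 2 and 3 scored 5.69, -0.67 and -0.87. Among the vehicle arrays, vehicle replicate 1 held the highest value of 23 of the 52 genes. Without it, 50 of 52 genes were lower by sign and the median change was -0.14. Then 33 were lower at an unadjusted p under 0.05, against 6.13% of all genes. Without each of the other 5 arrays 47 to 49 genes were lower by sign. At an unadjusted p under 0.05, 25 to 29 were lower, against 5.95% to 6.55% of all genes. The fewest were found without R1881 replicate 3. The call of NUF2 was lost without that array, as it was without any other of the 6, with an adjusted p of 0.0702 to 0.164.

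**Figure D2:**
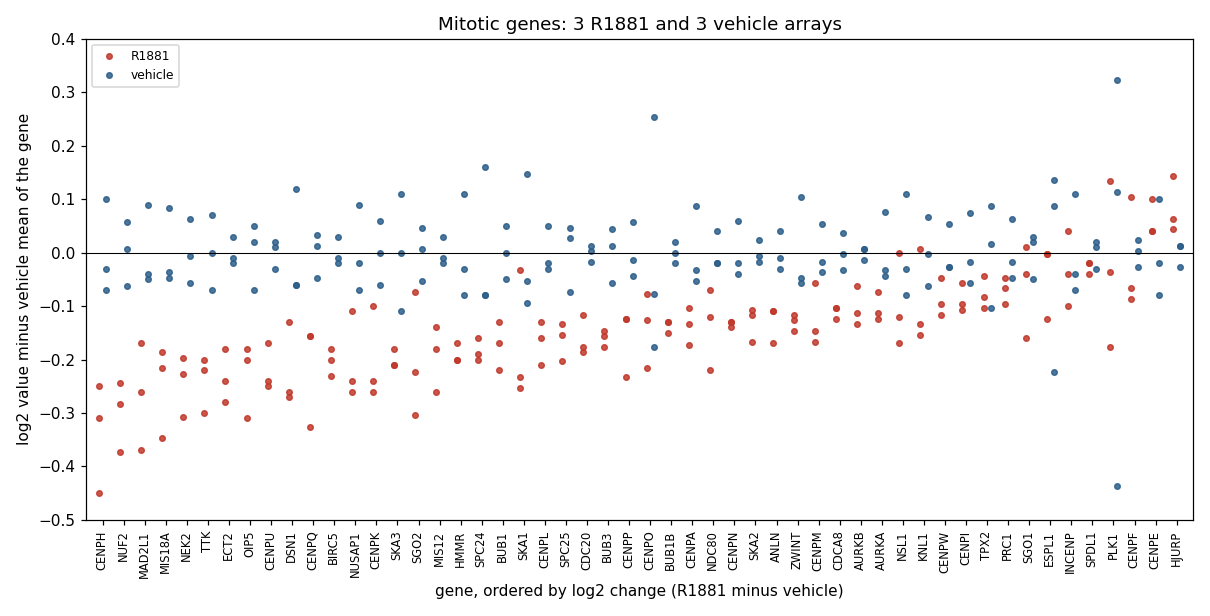
Log2 value of each of the 52 genes on each array minus the gene's vehicle mean (vertical axis), ordered by log2 change (horizontal axis), with 3 R1881 points left of 3 vehicle points per gene. From CENPH at the left to AURKB and AURKA the R1881 points lie below the vehicle points, apart from SKA1 and CENPO, and at the right end those of HJURP lie above them. The vehicle arrays of PLK1, CENPO and ESPL1 are widely spread.

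Many genes of this kind carry promoter elements that confer transcription in G2 and mitosis. The cell cycle genes homology region, or CHR, is bound by the DREAM and MuvB complexes, and CCAAT boxes bind the factor NF-Y. Windows of 300 bases, 250 before to 50 after the annotated start, were taken from RefSeq (GRCh38.p14) and matched by symbol to 42 of the 52 genes. No entry was matched for BIRC5, CENPH, TTK, MIS18A, CENPL, BUB3, CENPM, AURKA, KNL1 and TPX2. The CHR was searched as TTTGAA or TTCGAA and the CCAAT box as CCAAT, on both strands and with overlaps allowed. The CHR words were found in 28 of the 42 windows (66.7%), against 16.62% of the windows of 27305 genes and 10.9% of 9083 other genes above background. CCAAT was found in 30 (71.4%), against 35.7% and 36.71%. Both were found in 21 (50%), against 6.58% and 4.61%.

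The median change was -0.14 in the 28 genes with a CHR word and -0.19 in the 14 without, and -0.15 and -0.14 in genes with and without CCAAT. These differences were not tested. Promoters are shown for the 4 matched genes with the smallest p and, for contrast, for HJURP, the gene with the highest change. Capitals mark the searched words, and each is written 5′ to 3′ on the gene's strand. NUF2 lies on chr1:163321704-163322003 (plus strand) and holds 1 CHR word, 17 bases into the transcript. ECT2, the only printed gene with 2 windows in the table, of which the first is shown, lies on chr3:172750476-172750775 (plus strand). CENPU lies on chr4:184734047-184734346 (minus strand), NEK2 on chr1:211675572-211675871 (minus strand) and HJURP on chr2:233854486-233854785 (minus strand).
NUF2: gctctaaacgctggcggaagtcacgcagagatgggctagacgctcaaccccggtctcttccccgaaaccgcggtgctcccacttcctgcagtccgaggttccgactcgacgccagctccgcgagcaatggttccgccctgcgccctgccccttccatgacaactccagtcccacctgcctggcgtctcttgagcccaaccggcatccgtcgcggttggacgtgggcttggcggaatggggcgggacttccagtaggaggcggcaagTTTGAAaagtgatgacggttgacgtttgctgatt
ECT2: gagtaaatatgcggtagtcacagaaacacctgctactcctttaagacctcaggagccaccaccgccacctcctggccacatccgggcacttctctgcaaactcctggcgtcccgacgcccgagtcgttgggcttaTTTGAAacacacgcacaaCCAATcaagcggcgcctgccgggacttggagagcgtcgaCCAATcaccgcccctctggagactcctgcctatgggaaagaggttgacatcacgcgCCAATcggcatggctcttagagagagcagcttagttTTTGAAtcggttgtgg
CENPU: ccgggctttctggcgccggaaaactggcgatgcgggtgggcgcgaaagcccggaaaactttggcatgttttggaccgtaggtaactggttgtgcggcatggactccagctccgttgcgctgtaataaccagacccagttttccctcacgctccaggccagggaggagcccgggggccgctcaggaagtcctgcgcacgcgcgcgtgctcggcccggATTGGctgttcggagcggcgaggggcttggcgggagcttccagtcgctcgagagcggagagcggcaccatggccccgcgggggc
NEK2: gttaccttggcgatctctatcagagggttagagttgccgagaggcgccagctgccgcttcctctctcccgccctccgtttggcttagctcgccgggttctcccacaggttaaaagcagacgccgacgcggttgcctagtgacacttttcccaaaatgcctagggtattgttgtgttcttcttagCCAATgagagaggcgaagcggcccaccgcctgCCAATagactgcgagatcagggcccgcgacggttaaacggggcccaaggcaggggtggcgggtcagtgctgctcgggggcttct
HJURP: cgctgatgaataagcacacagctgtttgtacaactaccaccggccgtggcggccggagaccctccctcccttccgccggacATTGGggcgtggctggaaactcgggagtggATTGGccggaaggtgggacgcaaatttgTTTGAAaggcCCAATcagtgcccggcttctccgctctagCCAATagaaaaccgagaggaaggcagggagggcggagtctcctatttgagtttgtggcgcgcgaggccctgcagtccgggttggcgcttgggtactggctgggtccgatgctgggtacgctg
The ECT2 window holds 2 CHR words and 3 CCAAT words, and that of CENPU holds 1 CCAAT word, on the opposite strand. The HJURP window holds 1 CHR word and 4 CCAAT words, and that of NEK2 holds 2 CCAAT words and no CHR word. A match is a description of the letters and not a measured binding site.

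CENPA and the factors that place it at centromeres were mixed in sign. Of 4 genes 3 were lower by sign, 1 was higher and none passed. OIP5, also called MIS18B, and MIS18A form the complex that licenses centromeres for new CENPA. OIP5 had log2 values of 9.63, 9.50 and 9.61 in R1881 replicates 1 to 3, against 9.86, 9.74 and 9.83 in vehicle replicates 1 to 3, a change of -0.23 ± 0.06 (SE) with an adjusted p of 0.113. MIS18A had 8.83, 8.99 and 8.96 in R1881 arrays, against 9.14, 9.13 and 9.26 in vehicle arrays, a change of -0.25 ± 0.06 with an adjusted p of 0.119. In both genes the groups did not overlap. HJURP, the chaperone that delivers CENPA, went the other way, with 9.24, 9.34 and 9.26 in R1881 arrays and 9.21, 9.21 and 9.17 in vehicle arrays. Its change was 0.08 ± 0.05 with an adjusted p of 0.466. The 95% interval of -0.03 to 0.19 included no change, although the arrays were separate. CENPA itself stood at -0.14 ± 0.05 (adjusted p = 0.312), and its 3 other probe sets at -0.12 to -0.14.

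All 11 genes of the constitutive inner kinetochore, the layer that links CENPA chromatin to the outer kinetochore, were lower by sign, and none passed. Their median was -0.16. In 9 of them the R1881 arrays lay below the vehicle arrays, as in 71.2% of the members and 14.8% of genes above background. CENPH had the lowest change measured among the 52 genes. Its log2 values were 7.96, 8.16 and 8.10 in R1881 arrays, against 8.51, 8.38 and 8.34 in vehicle arrays. The change was -0.34 ± 0.07 (SE), which is 0.792 of the vehicle level, with an adjusted p of 0.0708. The spread between arrays was wider than in most members. CENPU had 9.88, 9.96 and 9.89 in R1881 arrays, against 10.14, 10.15 and 10.10 in vehicle arrays, a change of -0.22 ± 0.04 with an adjusted p of 0.0622. CENPQ, which together with CENPU, CENPO and CENPP belongs to one subcomplex, stood at -0.21 ± 0.06, CENPK at -0.20 ± 0.06, CENPL at -0.17 ± 0.05 and CENPP at -0.16 ± 0.05. CENPN, which recognises the CENPA nucleosome, stood at -0.13 ± 0.05 and CENPM at -0.12 ± 0.05.

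CENPW and CENPI were the inner kinetochore genes closest to 0. CENPW, a histone-fold protein, had 9.95, 9.93 and 10.00 in R1881 arrays and 10.10, 10.02 and 10.02 in vehicle arrays, a change of -0.09 ± 0.05 (adjusted p = 0.450), and CENPI had the same change. CENPO stood at -0.14 ± 0.11 (adjusted p = 0.606) because of a wide vehicle group of 7.48, 7.05 and 7.15, beside R1881 values of 7.15, 7.01 and 7.10. Without vehicle replicate 1 its change was -0.01.

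The outer kinetochore holds the NDC80 complex, which grips the microtubule, and the MIS12 and KNL1 complexes, which anchor it and recruit the checkpoint. All 9 genes were lower by sign, 1 fell and 8 did not pass, with a median of -0.16. NUF2, the partner of NDC80 in the microtubule-binding head, had log2 values of 9.51, 9.47 and 9.38 in R1881 arrays, against 9.69, 9.76 and 9.81 in vehicle arrays. Its means were 9.45 ± 0.07 and 9.75 ± 0.06 (SD, n = 3 each). The fall of 0.30 ± 0.06 (SE) left 0.812 times the vehicle level, with a 95% interval of -0.43 to -0.17 for the log2 change. By p it ranked 403 of 18129 genes, close to the last of the 438 called. An exact permutation test on its 6 values cannot go below p = 0.10 with 3 arrays against 3.

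The partners of NUF2 had smaller differences. NDC80 stood at -0.14 ± 0.05 (adjusted p = 0.313), SPC24 at -0.18 ± 0.07 and SPC25 at -0.16 ± 0.05, and in all 3 the groups did not overlap. The difference between NUF2 and its partners was not tested. SPC24 was dim, with 6.48, 6.52 and 6.49 in R1881 arrays and 6.84, 6.60 and 6.60 in vehicle arrays, and its only other set above background stood at 0.00. MIS12 had 8.83, 8.95 and 8.91 in R1881 arrays, against 9.08, 9.07 and 9.12 in vehicle arrays, a change of -0.19 ± 0.05 (SE) with an adjusted p of 0.120. DSN1 of the same complex stood at -0.22 ± 0.07 and NSL1 at -0.10 ± 0.07. KNL1, the scaffold for the checkpoint kinase BUB1, was closest to 0, with 9.67, 9.51 and 9.53 in R1881 arrays and 9.66, 9.60 and 9.73 in vehicle arrays, a change of -0.09 ± 0.06 (adjusted p = 0.535) in groups that overlapped. Its partner ZWINT stood at -0.13 ± 0.06.

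The SKA complex, which helps the NDC80 complex to hold shortening microtubules, and proteins of the outermost corona gave the smallest median of the roles, -0.08. Of 6 genes 5 were lower by sign and none passed. SKA3 had 6.69, 6.66 and 6.66 in R1881 arrays, against 6.98, 6.87 and 6.76 in vehicle arrays, a change of -0.20 ± 0.06 (SE) with an adjusted p of 0.206. SKA2 had 9.51, 9.50 and 9.45 in R1881 arrays, against 9.61, 9.64 and 9.60 in vehicle arrays, a change of -0.13 ± 0.04 with an adjusted p of 0.226. In both genes the groups were separate, whereas those of SKA1 (-0.17 ± 0.09) overlapped. CENPE, the kinesin of the corona, had 8.08, 8.02 and 8.02 in R1881 arrays and 8.08, 7.96 and 7.90 in vehicle arrays, a change of 0.06 ± 0.06 (adjusted p = 0.673) with an interval of -0.08 to 0.20. CENPF and SPDL1, an adaptor for dynein, stood at -0.02 ± 0.06 and -0.03 ± 0.04. The interval of SPDL1, -0.12 to 0.07, is among the narrow ones. A second set of CENPF, dimmer and noisier, stood at -0.21 ± 0.16.

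All 5 spindle checkpoint genes were lower at an unadjusted p under 0.05, with groups that did not overlap. Of all members 65.4% were lower at that p, against 10.3% of genes above background. The R1881 arrays lay below the vehicle arrays in 71.2% of the members and 14.8% of genes above background. Whether the checkpoint differs from the other roles was not tested. None of its 5 genes passed after adjustment, and their median was -0.17. TTK, the MPS1 kinase that starts checkpoint signalling, had 9.67, 9.59 and 9.69 in R1881 arrays, against 9.96, 9.82 and 9.89 in vehicle arrays, a change of -0.24 ± 0.05 (SE) with an adjusted p of 0.0903. MAD2L1, which encodes the inhibitor MAD2, had 10.53, 10.64 and 10.73 in R1881 arrays, against 10.86, 10.85 and 10.99 in vehicle arrays, a change of -0.27 ± 0.07 with an adjusted p of 0.125. BUB1 stood at -0.17 ± 0.05 (adjusted p = 0.165) and BUB3, which brings the BUB proteins to KNL1, at -0.16 ± 0.05 (adjusted p = 0.167). BUB1B, which encodes BUBR1, had the smallest change of the 5 and the tightest arrays. It had 9.06, 9.06 and 9.04 in R1881 arrays, against 9.17, 9.21 and 9.19 in vehicle arrays, a change of -0.14 ± 0.04 with an adjusted p of 0.182.

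The chromosomal passenger complex corrects wrong attachments through the kinase AURKB, and the shugoshins protect cohesion at the centromere. All 6 genes were lower by sign and none passed, with a median of -0.11. At an unadjusted p under 0.05, 4 were lower, against 65.4% of the members and 10.3% of genes above background. BIRC5, which encodes survivin, had 10.38, 10.35 and 10.40 in R1881 arrays, against 10.61, 10.57 and 10.56 in vehicle arrays, a change of -0.20 ± 0.04 (SE) with an adjusted p of 0.0647. SGO2 had 8.34, 8.49 and 8.26 in R1881 arrays, against 8.51, 8.57 and 8.61 in vehicle arrays, a change of -0.20 ± 0.07 with an adjusted p of 0.249. The groups of both genes were separate. CDCA8, which encodes borealin, stood at -0.11 ± 0.04 and AURKB at -0.10 ± 0.04, with adjusted p of 0.304 and 0.334. INCENP, the scaffold of the complex, had 7.08, 6.94 and 7 in R1881 arrays and 7, 7.15 and 6.97 in vehicle arrays, a change of -0.03 ± 0.06 (adjusted p = 0.848) in overlapping groups. SGO1 stood at -0.06 ± 0.06.

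Among 6 genes of mitotic kinases and spindle assembly all were lower by sign and none passed, with a median of -0.15. At an unadjusted p under 0.05, 3 were lower, against 65.4% of the members and 10.3% of genes above background. NEK2, a kinase that parts the centrosomes, had 8.87, 8.98 and 8.95 in R1881 arrays, against 9.24, 9.12 and 9.17 in vehicle arrays, a change of -0.24 ± 0.05 (SE) with an adjusted p of 0.0793. HMMR, a spindle protein that also binds hyaluronan, had 10.73, 10.73 and 10.76 in R1881 arrays, against 11.04, 10.85 and 10.90 in vehicle arrays, a change of -0.19 ± 0.06 with an adjusted p of 0.201. In both genes the groups were separate, as they were for NUSAP1, a microtubule bundler, at -0.20 ± 0.06. AURKA stood at -0.10 ± 0.05 and its activator TPX2 at -0.08 ± 0.06, with adjusted p of 0.408 and 0.596.

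PLK1, a kinase needed throughout mitosis, could not be placed. It had 8.12, 8.26 and 8.43 in R1881 arrays and 7.86, 8.62 and 8.41 in vehicle arrays, so vehicle replicate 1 was the lowest and vehicle replicate 2 the highest of the 6. Its change of -0.03 ± 0.19 had an interval of -0.47 to 0.42, the widest of the members. It was -0.25 without vehicle replicate 1 and 0.14 without vehicle replicate 2.

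Genes of anaphase and cytokinesis were likewise lower by sign, 5 of 5, with none past the threshold and a median of -0.13. At an unadjusted p under 0.05, 3 were lower, against 65.4% of the members and 10.3% of genes above background. ECT2, which activates RHOA for the cleavage furrow, came closest to passing after NUF2. It had 10.20, 10.30 and 10.24 in R1881 arrays, against 10.47, 10.46 and 10.51 in vehicle arrays, a change of -0.23 ± 0.05 (SE) with an adjusted p of 0.0560. CDC20, the activator of the anaphase-promoting complex, had 11.18, 11.12 and 11.11 in R1881 arrays, against 11.31, 11.30 and 11.28 in vehicle arrays, a change of -0.16 ± 0.04 with an adjusted p of 0.144. Neither gene's groups overlapped. ANLN, a scaffold of the contractile ring, stood at -0.13 ± 0.04 and PRC1, which bundles midzone microtubules, at -0.07 ± 0.05. ESPL1, the separase that cuts cohesin, had 8.17, 8.05 and 8.17 in R1881 arrays and 7.95, 8.26 and 8.31 in vehicle arrays, a change of -0.04 ± 0.10 (adjusted p = 0.871). As in PLK1, vehicle replicate 1 was the lowest array. The change was -0.16 without it, 0.00 without vehicle replicate 2 and 0.03 without vehicle replicate 3.

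PTTG1, which encodes the separase inhibitor securin, was represented only by a probe set shared with its relative PTTG3P. That set had 11.81, 11.85 and 11.88 in R1881 arrays, against 12.09, 12.02 and 12.06 in vehicle arrays. The groups did not overlap, and the change was -0.21 ± 0.05 (SE) with an adjusted p of 0.115 when all 49193 probe sets were tested. The signal of the 2 genes cannot be separated there.

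**Figure D3:**
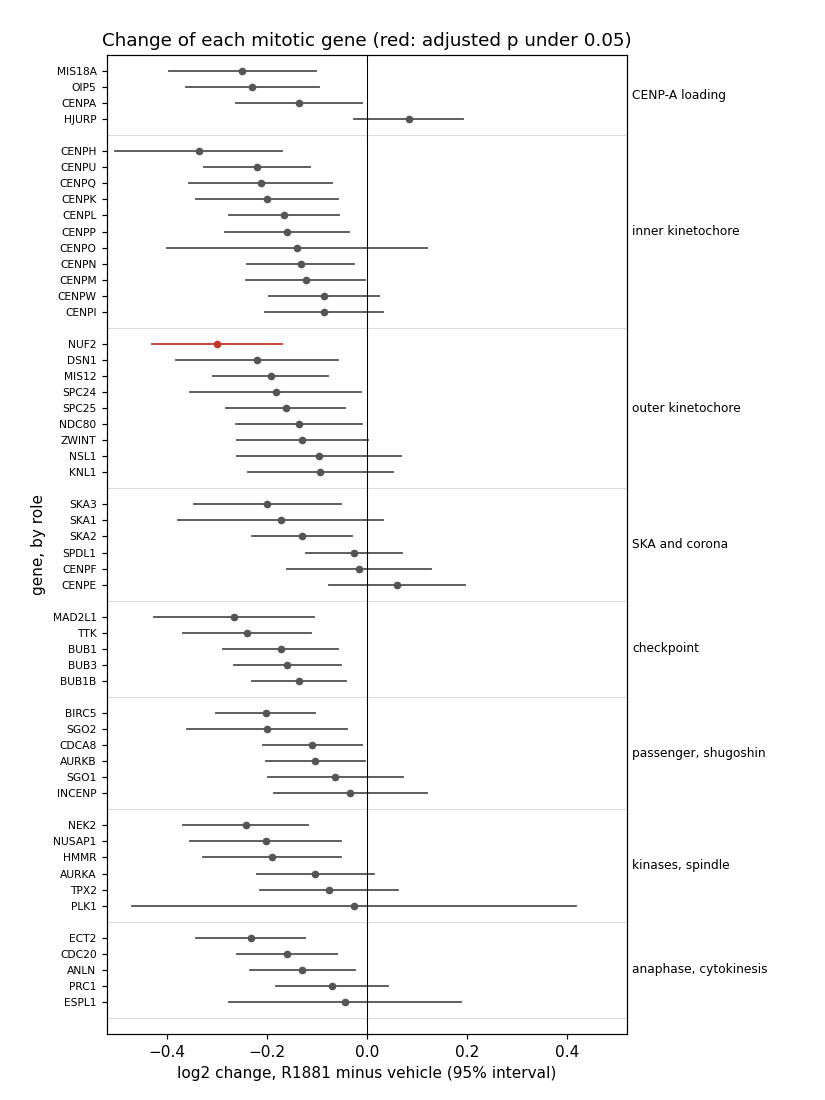
Log2 change, R1881 minus vehicle, with its 95% interval (horizontal axis) for each of the 52 genes, grouped by role (vertical axis). NUF2, in red, is the gene with an adjusted p under 0.05. All 5 checkpoint intervals lie below 0, and the widest interval is that of PLK1.

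Dim and bright genes had similar median changes. Split into 3 groups by mean level, the 18 dimmest genes (5.90 to 8.48) had a median change of -0.15, the 17 in the middle (8.61 to 9.73) -0.14 and the 17 brightest (9.73 to 11.33) -0.16. The median SE was 0.06, 0.05 and 0.05 in these groups.

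Other probe sets of the same genes gave the same direction. The members had 127 sets of their own, of which 109 lay above background, 57 of them not used above, in 28 genes. Of these 57 sets 55 were lower by sign, 1 set of SPC24 stood at 0.00 and 1 set of PLK1 at 0.18 ± 0.29 (SE). Sets of a gene share its RNA and often its probes and are not independent measurements. When every set with 1 gene was tested, 0.468% of 44898 sets were called lower, and 1 of the 127 was among them (0.787%). It was a second set of NUSAP1, at 9.72 in R1881 arrays and 10.06 in vehicle arrays, a fall of 0.34 ± 0.06 with an adjusted p of 0.0406. NUF2, which has 1 set, missed the threshold in that larger test.

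The brightest set gave a smaller change than the others in some genes and a larger one in others. The 3 other sets of HMMR stood at -0.31, -0.33 and -0.34, against -0.19 on the brightest, and the lowest adjusted p among them was 0.05001, just above the threshold. The 6 sets of NEK2 above background ran from -0.24 to -0.37. The 9 sets of BIRC5 above background ran from -0.12 to -0.27, with -0.20 on the brightest. Those of MAD2L1 ran from -0.26 to -0.30, with -0.27 on the brightest. PRC1, at -0.07 on its brightest set, had -0.11 and -0.23 on others. In the other direction, MIS18A stood at -0.25 on its brightest set and -0.13 on the other. CENPU stood at -0.22 on the brightest and -0.16 on the other, and SKA2 at -0.13 and -0.08. The used sets of 16 members, among them ECT2, CENPH, NEK2, TTK, MIS18A, MIS12, CDC20 and HMMR, carry an s or x in their identifiers, which marks probes that can match other transcripts.

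**Figure D4:**
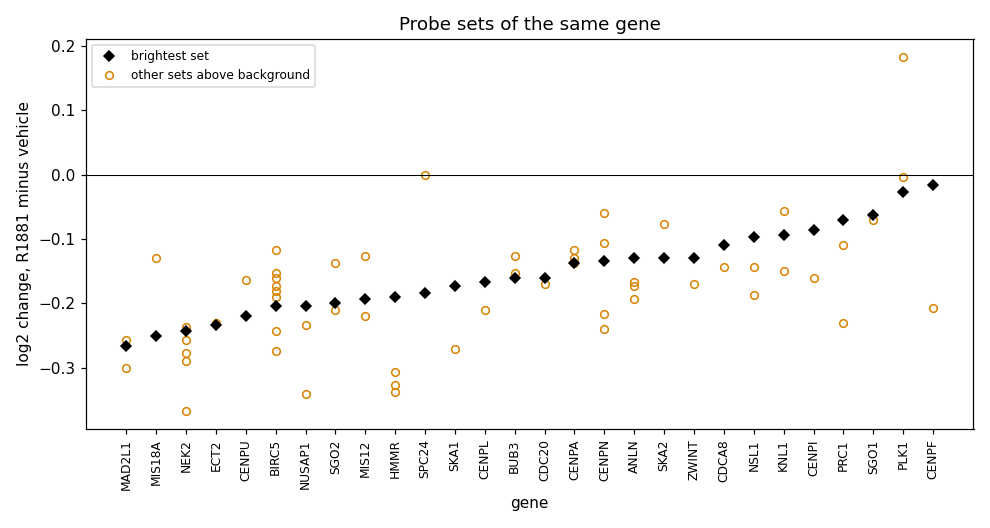
Log2 change, R1881 minus vehicle (vertical axis), on every probe set above background for the 28 genes with more than 1 such set (horizontal axis), with the brightest set as a filled diamond and the others as open circles. Of the 57 open circles 55 lie below 0. Those of HMMR, NUSAP1 and PRC1 reach well below the diamond, while that of MIS18A lies above it.

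Genes that work beside these were counted in 4 further lists. Of 16 other kinetochore and checkpoint genes 12 were lower by sign and none passed, with a median of -0.12. CENPC, the inner kinetochore's foundation, stood at -0.18 ± 0.04 (SE), CENPS at -0.25 ± 0.06 and KNTC1, which recruits dynein, at -0.20 ± 0.05, with adjusted p of 0.105, 0.128 and 0.134. Of 18 genes of the anaphase-promoting complex and its partners 1 fell, none rose and 17 did not pass, with a median of -0.04. The gene that fell was FBXO5, which encodes the inhibitor EMI1, with 9.17, 9.19 and 9.23 in R1881 arrays, against 9.59, 9.48 and 9.53 in vehicle arrays. Its fall of 0.34 ± 0.05 had an adjusted p of 0.0142. ANAPC7, a core subunit, stood at -0.10 ± 0.04 and the ubiquitin-conjugating enzyme gene UBE2C at 0.09 ± 0.05.

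Of 18 cohesin and condensin genes 17 were lower by sign and none passed, with a median of -0.09. CDCA5, which encodes sororin, and the condensin gene NCAPD3 both stood at -0.22 ± 0.05 (SE), with adjusted p of 0.0857 and 0.103, and the condensin ATPase gene SMC2 at -0.21 ± 0.06. Of 21 genes of the mitotic entry switch and of G2/M transcription 17 were lower by sign, none fell, 1 rose and 20 did not pass, with a median of -0.10. CCNB1, which encodes cyclin B1, had 10.43, 10.38 and 10.39 in R1881 arrays, against 10.61, 10.58 and 10.58 in vehicle arrays, a change of -0.19 ± 0.04 with an adjusted p of 0.0774. The phosphatase gene CDC25C stood at -0.22 ± 0.05 (adjusted p = 0.103). The gene that rose was CDKN1A, which encodes the CDK inhibitor p21, by 0.42 ± 0.05 with an adjusted p of 0.00492. It had 9.71, 9.73 and 9.71 in R1881 arrays, against 9.35, 9.29 and 9.24 in vehicle arrays. Whether the changes of these genes are linked was not tested.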

How the data were processed

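Total RNA of 3 R1881 and 3 vehicle samples was hybridised to 1 Affymetrix array each. The deposited log2 values come from RMA, which the submitters' processing notes name without a version. Quantile normalization, a standard step of RMA, makes the arrays' distributions alike, and a shift of all transcripts together would not remain visible. The deposited values carry 2 decimals, and precision is limited by 3 arrays per group.

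Of 49193 probe sets, 44898 had 1 gene symbol in the platform's annotation, and the brightest set per gene gave 18129 genes. R1881 was set against vehicle with limma 3.58.1 in R 4.3.3 (lmFit, eBayes without trend). Two-sided p-values were adjusted over all genes (Benjamini-Hochberg, threshold 0.05), and an adjusted p in the text is from this fit unless another is named. They measure only the spread between these samples. The fit was tested on simulated data with known changes. No filter or pseudocount was used. No 2 arrays shared more than 9.02% of their values. Members, lists, roles and named genes (per role those past the threshold, the 2 with the smallest p and the one furthest the other way) were chosen with earlier results of these data known. Array values of CENPO and SPC24 were added after they were seen. Promoters and motifs were read with Python 3.11.15. The alternatives are given in the closing section.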

Additional observations from a re-analysis of the deposited data

How the results depend on the processing

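The median change of the 52 genes kept its sign and lay between -0.16 and -0.14 in every alternative run, with 47 to 50 genes lower by sign and none called higher. The number of members called was less stable. NUF2 alone was called in the reported fit and after repeated quantile normalization or re-centring on genes above background. Counting NUF2, re-centring on all genes called 3, array weights 2, averaging all probe sets per gene 4, the removal of genes below background 9 and a trended robust prior 15. It was 0 among the brightest sets when every probe set was tested, where a second set of NUSAP1 was called. It was also 0 when sets without s or x were preferred, with the replicate number as a block and without any 1 of the 6 arrays (0 to 0). The adjusted p of NUF2 ran from 0.0702 to 0.164 without 1 array and from 0.00460 to 0.15 in the other alternatives, where it was under the threshold in 7 of 10. The causes were not tested, though a trended prior and fewer genes also gave 895 and 757 called genes in all, against 438 in the reported fit. That count was 722 of all probe sets, 222 with the replicate block and 209 to 270 without 1 array. Whether the replicate numbers pair the samples is not settled. Same-numbered arrays had correlations of deviations of 0.15, 0.10 and 0.05 over genes above background, and different-numbered arrays -0.12 to 0.07. For each R1881 array the vehicle array of the same number had the highest correlation, though all were weak. The scalings moved the median of all genes by at most 0.01. Without scanner files, signal over background is known only through the proxy.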
